A study of Mus musculus with 6 samples.

Results

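The genes described here are the enzymes of red cell glycolysis, from hexokinase to lactate dehydrogenase, together with Bpgm, which makes 2,3-bisphosphoglycerate. They are 10 of the 27179 genes listed in each count file, chosen by name as Hk1, Gpi1, Pfkl, Aldoa, Gapdh, Pgk1, Pgam1, Pklr, Ldha and Bpgm, and all 10 were found. RNA came from erythrocytes of 6 individual BalB/c males, 3 of genotype Nxf1+/C587R, which carry 1 missense allele of the messenger RNA export receptor Nxf1, and 3 wild-type Nxf1+/+ littermates. Their age is not given in the sources used here. Each of 3 batches held 1 library of either genotype.

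A mature red cell has no mitochondria, and glycolysis is its only source of ATP. From 1,3-bisphosphoglycerate, the substrate of phosphoglycerate kinase, a side branch opened by bisphosphoglycerate mutase leads to 2,3-bisphosphoglycerate, which binds deoxyhemoglobin and lowers its affinity for oxygen. The enzymes are long-lived, whereas the RNA of circulating red cells is what young cells, the reticulocytes, still hold after losing the nucleus. RNA counts therefore do not measure the enzymes.

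Total counts ran from 14636739 to 15790336 per library. Globins took 88.1% to 89.3% of them, which left 1627997 to 1877571 per library for the remaining genes. Of the erythroid markers listed, 8 of 10 were matched to a gene in the files and all 8 had counts in every library. Markers of hepatocytes separated the genotypes, with 1518, 3403 and 1953 counts over 12 genes in the mutants, against 92, 20 and 13 in wild type. Nearly all of these wild-type counts came from Ttr (90, 0 and 0) and Trf (2, 18 and 12). Markers of neutrophils (6 genes) had 557, 640 and 1148 counts in the mutants, against 1315, 1084 and 1072 in wild type. The summed markers of T and NK cells (6 genes) did not overlap, with 17, 30 and 23 counts in the mutants, against 57, 77 and 124 in wild type. Taken singly, Cd3e (2, 2 and 3 in the mutants, against 7, 2 and 3) and Cd3d (2, 6 and 3, against 1, 6 and 9) did overlap. B cell markers (139, 154 and 79 in the mutants, against 168, 146 and 416 in wild type) and platelet markers (139, 48 and 105 in the mutants, against 134, 126 and 240 in wild type) overlapped. Nxf1 itself had 9, 7 and 11 counts in the mutants, against 15, 10 and 20 in wild type, and its log2 fold change of −0.21 was not called (edgeR adjusted p = 0.850). Gene counts do not separate the C587R from the wild-type allele.

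Bpgm dominated the group in both genotypes. It had 36657, 39069 and 41163 counts in the mutants, against 54407, 52086 and 56258 in wild type. The other 9 genes together had 83, 86 and 111 counts in the mutants, against 145, 131 and 109 in wild type. Bpgm thus made up 99.7% to 99.8% of the counts of the 10 genes in every library. Among all genes it ranked 11 or 12 by count in the mutants, against 10 in wild type, whereas Gapdh, a common reference gene in nucleated cells, had 0, 1 and 0 counts in the mutants, against 0, 1 and 2 in wild type. At a count of 0 a level of up to 3 counts cannot be seen, equal to 0.190 to 0.205 CPM (counts per 1000000 counts of the library), and Gapdh was within that limit in all 6 libraries.

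**Figure D1:**
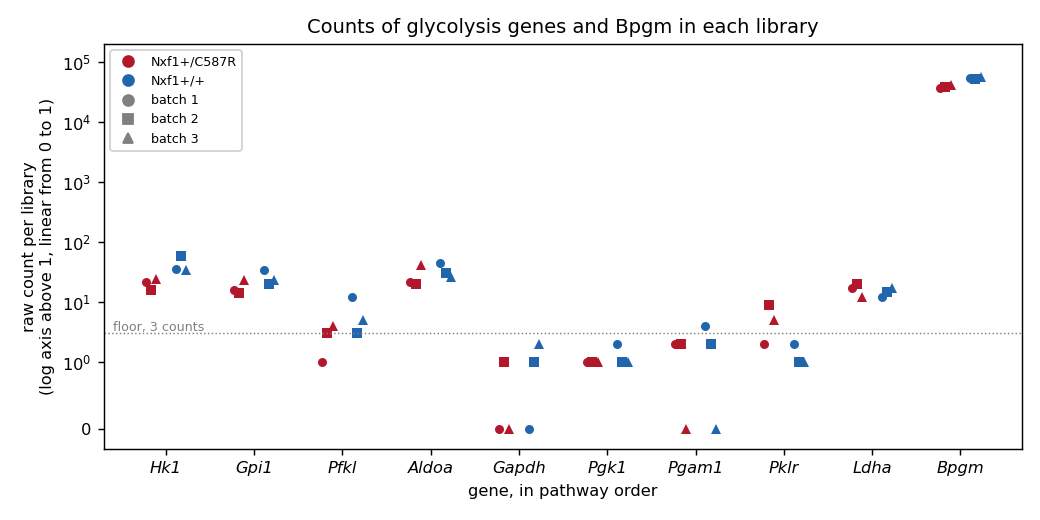
Raw counts of the 10 genes in each library, with Nxf1+/C587R in red to the left of Nxf1+/+ in blue and a symbol for each batch. The vertical axis is logarithmic above 1 and linear from 0 to 1, and the dotted line marks the floor of 3 counts. Bpgm sits between 36657 and 56258, and the highest count of any other gene is 58.

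Bpgm lies on chromosome 6 (34476356 to 34505136, Entrez gene 12183), and Pklr on chromosome 3 (89136122 to 89146815, Entrez gene 18770), both in the RefSeq annotation of GRCm38.p6, the assembly behind mm10. Their promoters are shown because Bpgm was the most abundant of these genes, while Pklr, the gene of red cell pyruvate kinase, was among the scarcest, although both enzymes work in the same cell. The sequences are from RefSeq, plus strand, 5′ to 3′, chr6:34476106-34476355 for Bpgm and chr3:89135892-89136121 for the first of the 2 Pklr starts, 250 and 230 bases long, each ending at the base before the annotated gene start. Capitals mark matches, on either strand, to the GATA motif (AGATAA, the same ending in G as AGATAG, the same starting with T as TGATAA, or with both changes as TGATAG) or to CCNCNCCC, the form bound by KLF factors, which GC boxes also match.
Bpgm: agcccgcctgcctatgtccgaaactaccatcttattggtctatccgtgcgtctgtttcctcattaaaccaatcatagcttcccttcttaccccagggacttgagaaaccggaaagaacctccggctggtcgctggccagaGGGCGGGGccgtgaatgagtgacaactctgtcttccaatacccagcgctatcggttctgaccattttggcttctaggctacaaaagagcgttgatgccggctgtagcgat
Pklr: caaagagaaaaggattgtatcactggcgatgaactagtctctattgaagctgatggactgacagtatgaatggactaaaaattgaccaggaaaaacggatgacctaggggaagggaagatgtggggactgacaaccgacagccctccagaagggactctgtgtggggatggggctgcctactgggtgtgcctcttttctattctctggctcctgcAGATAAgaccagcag
The Bpgm window held 1 match to CCNCNCCC and 0 to the GATA motif, and the Pklr window held 0 and 1. Neither held ACGTG, the core of hypoxia response elements. Over the 32851 windows of 250 bases before a RefSeq start, 45.9% held CCNCNCCC, 26.5% a GATA motif and 16.6% ACGTG, so each of these matches is common.

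Whether Bpgm differed between the genotypes depended on the scale. As a share of all counts Bpgm was 0.260% ± 0.0200 in the mutants, against 0.354% ± 0.00258 in wild type (SD, n = 3 each). Outside globins its share was 2.23% (95% Wilson interval 2.21 to 2.25), 2.39% (2.36 to 2.41) and 2.53% (2.50 to 2.55) in the mutants, against 3.13% (3.10 to 3.15), 3.18% (3.15 to 3.20) and 3.00% (2.97 to 3.02) in wild type. Every mutant library lay below every wild-type library on both scales, and the wild-type libraries lay close together. These intervals cover counting error only.

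With total counts the log2 fold change of Bpgm was −0.45 (SE 0.07, edgeR adjusted p = 0.000646), and it fell by 0.54, 0.47 and 0.34 within the 3 batches. Without batch 2 it was −0.44 and no longer called (adjusted p = 0.0533). On that scale the median log2 fold change of the 2823 genes tested was −0.53, and this median weighs scarce and abundant genes alike. The fall of Bpgm was smaller than that of the median gene. Genes with at least 10 counts numbered 2103, 2353 and 2772 in the mutants, against 4096, 2741 and 3401 in wild type. The part of scarce genes in the median was not tested. TMM scaling, which sets most genes level between libraries, used factors of 0.720, 0.780 and 1.06 in the mutants, against 1.23, 1.11 and 1.23 in wild type. It gave Bpgm 3357, 3285 and 2657 CPM in the mutants, against 2858, 3178 and 2899 in wild type. The groups then overlapped, the log2 fold change was 0.06 (SE 0.16, edgeR adjusted p = 0.903), and the median of all genes was −0.06. Within the batches the TMM-scaled difference was 0.23, 0.05 and −0.13.

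Ratios within a library need no scaling factor. The count of Bpgm per count of Alas2, the enzyme that starts heme synthesis in erythroid cells and the most abundant gene after the globins, was 0.0932, 0.101 and 0.103 in the mutants, against 0.130, 0.127 and 0.122 in wild type. The mutant ratio was lower in all 3 batches, with a log2 difference of −0.35 (−0.48, −0.32 and −0.24 by batch). Per globin count the log2 difference was −0.46, and per count of all other genes outside globins −0.39, without overlap of the groups in either. The exact two-sided permutation p was 0.1 for each of these 3 ratios, the smallest that 3 against 3 libraries allow, and 0.125 after adjustment over the 5 ratios tested (n = 3 each). These 3 ratios were chosen after the counts had been seen. Globins made up 88.1% to 89.3% of all counts, so the ratio to globins is nearly the share of all counts. On that scale the median log2 fold change of the genes tested was −0.53. The share of all genes that were lower in the same ratios was not tested. In bulk RNA a lower share from fewer young cells and less RNA per cell cannot be told apart.

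**Figure D2:**
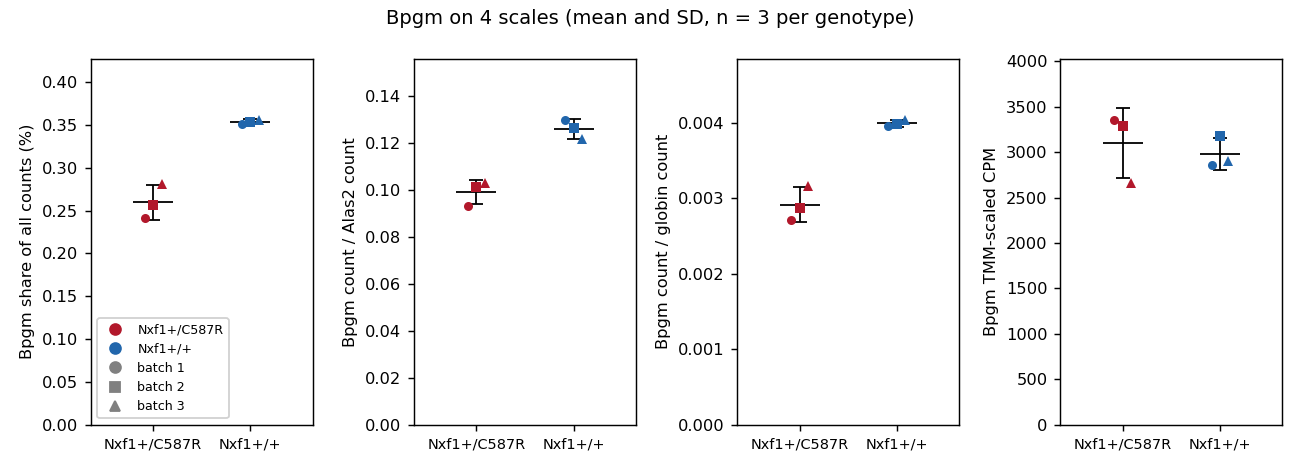
Bpgm in each library on 4 scales that start at 0: percent of all counts, count per Alas2 count, count per globin count and TMM-scaled CPM, with Nxf1+/C587R left of Nxf1+/+. Points are libraries, and bars are the mean and SD of 3. The genotypes are apart on the first 3 scales and overlap on the TMM scale.

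Likeness to Bpgm over the 6 libraries was measured as the root mean square distance of centred log2 CPM, TMM-scaled with 0.5 added, over 165 genes of at least 20 CPM. Rnf11, a RING finger protein gene, was at a distance of 0.0561, with 1303, 1542 and 1497 counts in the mutants, against 1970, 1909 and 2192 in wild type. Ghitm, an inner mitochondrial membrane protein gene, was at 0.0675, with 2096, 2359 and 2684 counts in the mutants, against 3187, 3137 and 3612 in wild type. Both genes, like Bpgm, had fewer raw counts in every mutant library than in any wild-type library. Pim1, a serine/threonine kinase gene, and Fam117a were at distances of 0.0699 and 0.0729. These genes were picked for likeness, so their values are a description.

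The other enzymes are given in pathway order, from glucose to lactate, with their positions in the same annotation. Hk1 (chromosome 10, 62268855 to 62379920, Entrez gene 15275), the hexokinase that traps glucose in the red cell, had 22, 16 and 24 counts in the mutants, against 35, 58 and 34 in wild type. The raw counts did not overlap, but TMM-scaled values did, at 2.01, 1.35 and 1.55 CPM in the mutants against 1.84, 3.54 and 1.75 CPM in wild type. Its log2 fold change was −0.53 (SE 0.33, edgeR adjusted p = 0.435) with TMM and −1.01 (SE 0.36, adjusted p = 0.0735) with total counts. Wild-type library 2 was the highest, and without batch 2 the TMM value was 0.01.

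Gpi1 (chromosome 7, 34201327 to 34230336, Entrez gene 14751), glucose-6-phosphate isomerase, had 16, 14 and 23 counts in the mutants, against 34, 20 and 23 in wild type. The genotypes overlapped, with a log2 fold change of −0.02 (SE 0.30, edgeR adjusted p = 0.979) with TMM and −0.50 (SE 0.36, adjusted p = 0.319) with total counts. Pfkl (chromosome 10, 77986947 to 78009807, Entrez gene 18641), the liver-type subunit of phosphofructokinase that red cells also use, had 1, 3 and 4 counts in the mutants, against 12, 3 and 5 in wild type. It was too low for the test, and its summed counts gave a total-scaled ratio of 0.408 (exact 95% interval 0.156 to 0.968) and a TMM-scaled ratio of 0.573 (0.218 to 1.36), for counting error only.

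Aldoa (chromosome 7, 126795234 to 126800994, Entrez gene 11674), the aldolase that splits fructose 1,6-bisphosphate, had 22, 20 and 42 counts in the mutants, against 44, 30 and 26 in wild type. Mutant library 3 lay near the top of the wild-type range, and the other mutant libraries lay below it. The log2 fold change was 0.24 (SE 0.30, edgeR adjusted p = 0.763) with TMM and −0.21 (adjusted p = 0.677) with total counts. Neutrophil markers were also highest in library 3 among the mutants, and their part in the Aldoa values was not tested.

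Gapdh, Pgk1 and Pgam1, which carry the pathway from glyceraldehyde 3-phosphate to 2-phosphoglycerate, were at the detection floor. Gapdh lies on chromosome 6 (125161852 to 125166467, Entrez gene 14433), and its counts are given above. Pgk1 (chromosome X, 106187100 to 106203699, Entrez gene 18655), phosphoglycerate kinase, had 1 count in each mutant library and 2, 1 and 1 in wild type. Pgam1 (chromosome 19, 41911871 to 41918665, Entrez gene 18648), the phosphoglycerate mutase of the main pathway and a relative of Bpgm, had 2, 2 and 0 counts in the mutants, against 4, 2 and 0 in wild type. A difference between the genotypes was not detectable at these counts for any of the 3 genes. The log2 difference of the Bpgm to Pgam1 ratio, with 0.5 added to both counts, was −0.20 (exact permutation p = 0.7, two-sided, n = 3 each; adjusted p = 0.7), and this ratio rests on 10 counts of Pgam1 in all.

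Reads of near-identical copies can be dropped or moved between genes, and how this was handled is not given in the sources used here. In GENCODE M21, 77 other annotated genes held a stretch of at least 200 bases with at least 95% identity to the Gapdh transcript, 4 each did so for Pgk1 and Ldha, and 1 each for Gpi1 and Pgam1. The counts of these 5 genes are therefore uncertain. Of the 77 Gapdh copies 3 were listed in the count files, with 6 counts in all. No such copy was found for Hk1, Pfkl, Aldoa, Pklr or Bpgm. Hk1os, a long noncoding RNA gene that overlaps Hk1, had 1 count in all, and Hcn3, which shares 41 bases with Pklr, had 0, 0 and 1 in the mutants, against 1, 0 and 0 in wild type.

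Pklr, whose red cell form is the pyruvate kinase of erythrocytes and whose liver form is made by hepatocytes, had more counts in the mutants. It had 2, 9 and 5 counts in the mutants, against 2, 1 and 1 in wild type, a sum of 16 against 4. The total-scaled ratio of the sums was 4.08 (exact 95% interval 1.32 to 16.8) and the TMM-scaled ratio 5.73 (1.85 to 23.5), for counting error only. Pklr was too low for the main test, and when all genes with a count were fitted its log2 fold change was 2.45 (SE 0.87, edgeR adjusted p = 0.135). The Bpgm to Pklr ratio, with 0.5 added to both counts, was lower in the mutants in all 3 batches, with log2 differences of −0.57, −3.08 and −2.33, without overlap of the groups (exact permutation p = 0.1, two-sided, n = 3 each; adjusted p = 0.125). In batch 1 Pklr had 2 counts in either genotype, so the difference there is that of the Bpgm counts alone.

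The summed hepatocyte markers stood in the same order among the mutant libraries as Pklr, lowest in library 1 and highest in library 2. Pck1 (22, 11 and 9 counts) and Fbp1 (6, 9 and 11), liver enzymes described below, did not follow this order. All 12 of these markers had counts in each mutant library, and 2, 3 and 2 of them in wild type, with Alb at 490, 1136 and 800 counts in the mutants, against 0, 1 and 0 in wild type. Gene counts do not separate the red cell from the liver form of Pklr, and the part of hepatocyte RNA in its counts was not tested. The same 165 genes of at least 20 CPM leave out scarcer genes such as Pck1 and Fbp1. Among them the profile nearest to Pklr was that of Selenop, at a distance of 0.198. Selenop encodes a plasma selenium carrier made mainly by liver. It had 295, 460 and 406 counts in the mutants, against 288, 252 and 335 in wild type, where Alb had at most 1 count. Among the mutants Selenop was lowest in library 1 and highest in library 2, as were the summed hepatocyte markers. The part of hepatocyte RNA in the Selenop counts was not tested. G3bp2, Cox6c, Gda and Eif5 followed at 0.243 to 0.252, and these distances rest on 20 counts of Pklr in all.

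Ldha (chromosome 7, 46842274 to 46855627, Entrez gene 16828), which reduces pyruvate to lactate and so restores NAD+, had 17, 20 and 12 counts in the mutants, against 12, 15 and 17 in wild type. The genotypes overlapped. The log2 fold change was 0.70 (SE 0.37, edgeR adjusted p = 0.336) with TMM and 0.18 (adjusted p = 0.724) with total counts.

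In all, 5 of the 10 genes, Hk1, Gpi1, Aldoa, Ldha and Bpgm, passed the filter on low counts. With TMM scaling 0 of these 5 were called at an adjusted p under 0.05 by edgeR, 0 had an unadjusted p under 0.05, and DESeq2 called 0. Over all genes tested 5.99% were called higher and 1.06% lower. With total counts 1 of the 5, Bpgm, was called lower and 0 higher, where 8.68% of all genes were lower and 4.07% higher. With batch as a block 0 of the 5 were called with TMM (6.87% of all genes higher, 2.13% lower), and Bpgm alone with total counts (4.29% higher, 12.8% lower). DESeq2 called 6.27% of all genes higher and 0.39% lower. The median log2 fold change of the 5 genes was 0.06 with TMM and −0.45 with total counts, beside medians over all genes of −0.06 and −0.53.

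**Figure D3:**
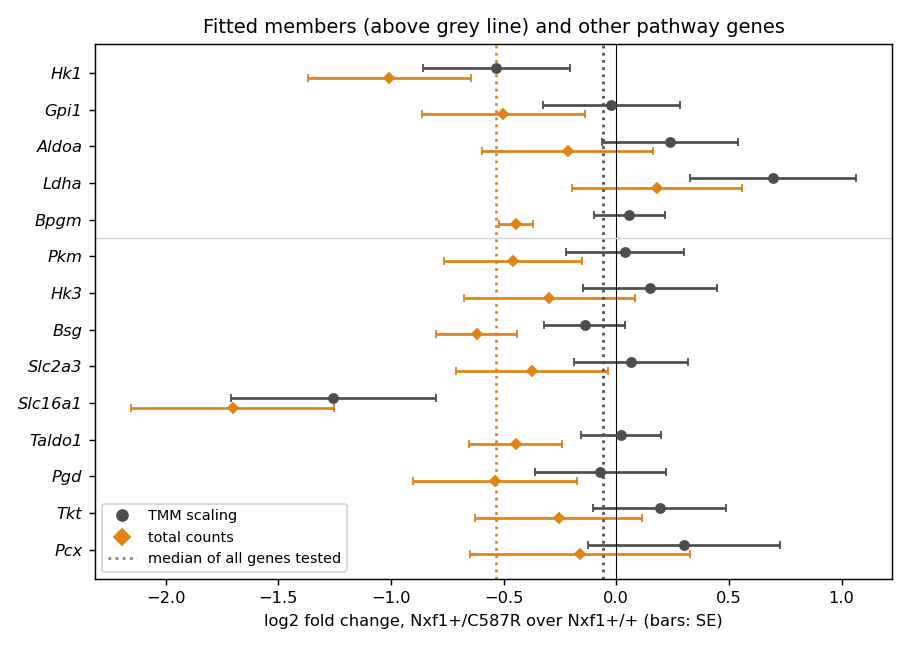
Log2 fold changes of Nxf1+/C587R over Nxf1+/+ with standard errors, for the 5 fitted enzymes (above the grey line) and 9 other pathway genes. Circles are TMM-scaled, diamonds use total counts, and dotted lines mark the medians of all genes tested, −0.06 and −0.53. For each gene the diamond lies left of the circle.

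Levels of different genes were compared per kilobase of gene model, as CPM of total counts. Bpgm had 1256 ± 96.9 CPM per kilobase in the mutants, against 1711 ± 12.5 in wild type (SD, n = 3 each). Aldoa came next with 1.03 ± 0.473 in the mutants, against 1.19 ± 0.333 in wild type. Bpgm was 864- to 1908-fold above the next highest enzyme in each library. Below Aldoa came Ldha, Gpi1 and Hk1, whose ranges over the 6 libraries overlapped from one to the next, with means of 0.529, 0.499 and 0.462. Pfkl, Pklr, Pgam1, Pgk1 and Gapdh followed with means of 0.0821, 0.0788, 0.0598, 0.0426 and 0.0352, and their ranges overlapped too. The level of Bpgm ranked 13 among all genes, that of Aldoa 897 and that of Gapdh 9293.

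The enzymes of the remaining steps were as scarce. Tpi1, triosephosphate isomerase, had 7, 14 and 6 counts in the mutants, against 8, 6 and 7 in wild type, and Eno1, enolase, had 1, 4 and 4 in the mutants, against 5, 3 and 2 in wild type. Neither was tested.

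Pkm, the pyruvate kinase of most other tissues, had 46, 39 and 51 counts in the mutants, against 86, 56 and 49 in wild type. It thus had more counts than Pklr in each library, and its log2 fold change was 0.04 (SE 0.26, edgeR adjusted p = 0.961). Hk3, the hexokinase of myeloid cells, had 17, 17 and 38 counts in the mutants, against 30, 27 and 34 in wild type (log2 0.15, SE 0.30, adjusted p = 0.861), and Pfkp, a further phosphofructokinase subunit, had 4, 5 and 1 in the mutants, against 3, 3 and 9 in wild type. In mutant library 3 Hk3 and the neutrophil markers were both at their highest among the mutants. The part of neutrophil RNA in these genes was not tested.

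Gluconeogenic enzymes known from liver had counts in the mutant libraries. Pck1, phosphoenolpyruvate carboxykinase, had 22, 11 and 9 counts in the mutants and Fbp1, fructose-1,6-bisphosphatase, had 6, 9 and 11, and both had 0 counts in all 3 wild-type libraries. Neither passed the filter. Pcx, pyruvate carboxylase, which many tissues use, had 4, 14 and 16 counts in the mutants, against 18, 11 and 10 in wild type (log2 0.30, SE 0.43, edgeR adjusted p = 0.793). Wild-type library 1 held 312 counts over 9 exocrine pancreas markers, while the mutants had 1 each and the other wild-type libraries 0 and 2. The part of liver or pancreas RNA in these genes was not tested.

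**Figure D4:**
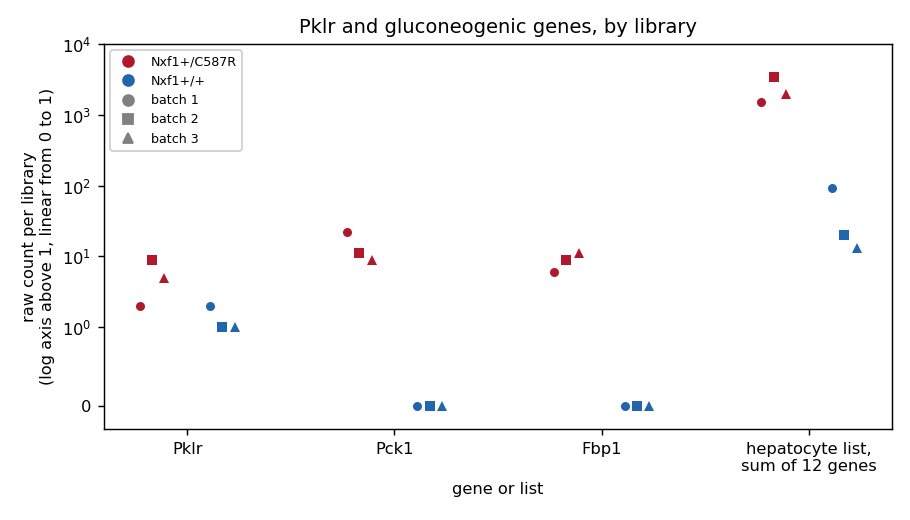
Raw counts of Pklr, of the gluconeogenic genes Pck1 and Fbp1 and of the 12 hepatocyte markers summed, in each library, with Nxf1+/C587R left of Nxf1+/+. The vertical axis is logarithmic above 1 and linear from 0 to 1. The mutant libraries are above the wild-type libraries for Pck1, Fbp1 and the marker sum. Pklr is highest in the mutant library with most marker counts, whereas Pck1 and Fbp1 are highest in other mutant libraries.

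Of 14 regulators and transporters of the pathway 6 were tested, and 0 were called with TMM by edgeR or DESeq2, 1 of them with an unadjusted edgeR p under 0.05, while 2 were lower with total counts, where 8.68% of all genes were lower. These were Slc16a1, the monocarboxylate transporter that carries lactate out of the red cell, and Bsg, basigin, the partner that brings it to the membrane. Slc16a1 had 18, 12 and 28 counts in the mutants, against 27, 93 and 73 in wild type, so wild-type library 1 lay within the mutant range. Its log2 fold change was −1.26 (SE 0.46, edgeR adjusted p = 0.160) with TMM and −1.70 (adjusted p = 0.0224) with total counts. With batch as a block it passed (−1.14, adjusted p = 0.00751), as it did with no filter on low counts (adjusted p = 0.00394), without batch 1 (−1.66, adjusted p = 0.00723) and without wild-type library 1 (−1.64, adjusted p = 0.00218). Without batch 2 it was −0.54 (adjusted p = 0.635), without wild-type library 2 −0.77 (adjusted p = 0.372), and DESeq2 did not call it (adjusted p = 0.10, and −1.06 with adjusted p = 0.525 with batch as a block).

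Bsg was the most abundant of these genes, with 368, 377 and 473 counts in the mutants, against 532, 711 and 668 in wild type. The raw counts did not overlap, yet the TMM-scaled log2 fold change was −0.14 (SE 0.18, edgeR adjusted p = 0.769), and −0.62 with total counts (adjusted p = 0.0362), close to the median of all genes on that scale. Slc2a3, a glucose transporter, had 32, 36 and 72 counts in the mutants, against 58, 65 and 63 in wild type (log2 0.07, SE 0.25, adjusted p = 0.931).

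The pentose phosphate pathway, which branches off at glucose-6-phosphate and supplies NADPH against oxidants, had 4 of 7 genes tested and 0 called by edgeR, with TMM or with total counts, or by DESeq2, and 0 with an unadjusted p under 0.05 with TMM. Taldo1, transaldolase, had 247, 338 and 411 counts in the mutants, against 399, 478 and 512 in wild type, more than any other enzyme of these pathway lists but Bpgm. Its log2 fold change was 0.02 (SE 0.18, edgeR adjusted p = 0.968) with TMM and −0.45 with total counts (adjusted p = 0.146, and 0.0246 with batch as a block). Pgd and Tkt, 6-phosphogluconate dehydrogenase and transketolase, were not called either, at −0.07 (log2, SE 0.29, edgeR adjusted p = 0.935; −0.54 with total counts) for Pgd and 0.19 (SE 0.30, adjusted p = 0.817) for Tkt.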

How the data were processed

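Polyadenylated RNA of erythrocytes, taken by cardiac puncture and passed over Ficoll to remove other cells, was sequenced with an Illumina TruSeq kit, per the labels' protocols. Markers of neutrophils, B cells, T and NK cells and platelets still had counts in every library. Read counts per gene were deposited by the authors, and per the submitters' processing notes they were made with CASAVA 1.8.2, Subread and featureCounts on mm10. Tool settings, strand and treatment of reads with several matches are not given in the sources used here. Of the 27179 Entrez gene IDs, 25275 were named from RefSeq and 18 from GENCODE, and 1886 without a symbol held 1.39% of the counts. Near-identical copies were searched with blastn 2.17.0.

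The main test was edgeR's quasi-likelihood test (edgeR 4.0.16 in R 4.3.3, TMM scaling, default expression filter, robust dispersion) of 3 mutant against 3 wild-type libraries, with Benjamini-Hochberg adjustment over all 2823 genes tested and a threshold of 0.05. DESeq2 1.42.0 and limma 3.58.1 (voom), other scalings and filters, each library or batch left out, and batch as a block were alternatives. The labels give each batch 1 library of either genotype, which is where the pairing comes from, and deviations from the group means correlated at −0.12, −0.09 and −0.04 within batches. For Pfkl and Pklr, too low for the test, ratios of summed counts were given with exact 95% binomial intervals. These, like the floors, cover counting error only. Other genes too low for the test were given no such ratio. The p-values of the fits set the genotype difference against the spread between animals of a genotype, estimated with help from all genes tested. With batch as a block this is the spread left after batch. The exact permutation p only ranks the difference among regroupings of the libraries.

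The enzymes and the pathway and marker lists were chosen with earlier results of these data known. Of 124 list entries 122 were matched. The text names all 10 enzymes and, from each further list, called genes and the 3 most abundant ones, and some genes that this rule or the likeness to Bpgm would name are not reported here. The models were tested on simulated data of 2823 genes, 200 of them changed. There edgeR recovered 10% of the genes changed 1.5-fold, 28% of those changed 2-fold and 100% of those changed 4-fold. DESeq2 recovered 8%, 20% and 96% of them, and voom 8%, 18% and 94%. Most genes changed 1.5-fold or 2-fold were thus missed by each tool, so a gene not called can still differ by that much.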

Additional observations from a re-analysis of the deposited data

How the results depend on the processing

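Total counts gave −0.21 (log2) for Aldoa, −0.45 for Bpgm, −0.30 for Hk3, −0.46 for Pkm, −0.37 for Slc2a3, −0.26 for Tkt, −0.45 for Taldo1 and −0.16 for Pcx, with 245 genes lower and 1 enzyme lower (Bpgm). That fall of Bpgm ran from −0.51 to −0.40 when each library was left out (adjusted p at most 0.00837) and was −0.44 without batch 2 (adjusted p = 0.0533). With batch as a replicate block, 194 genes were higher and 60 lower, Gpi1 was 0.00049 and Slc16a1 passed with edgeR (not with DESeq2 and the block, −1.06, adjusted p = 0.525), and of the other named genes none gained or lost a call. Gpi1 was 0.035 with RLE scaling, 0.037 with no filter, 0.036 with DESeq2, 0.019 without globins, 0.0087 with voom, 0.056 with DESeq2 and the block, 0.21 without batch 1, −0.12 without batch 3, −0.50 with total counts and 0.031 without batch 2. A mean count of at least 50 gave −0.084 for Bpgm, −0.11 for Pkm, −0.055 for Slc2a3 and −0.10 for Taldo1. Without batch 2, Hk1 was 0.013, Bsg 0.081 and Pgd 0.15, and without batch 3, Aldoa was −0.089, Hk3 −0.029, Pkm −0.0076 and Slc2a3 −0.15. Genes called lower numbered 19 with RLE scaling and without globins, 82 with no filter, 49 at a mean count of 50, 11 with DESeq2, 3 with DESeq2 and the block, 19 without batch 2, 3 without batch 3 and 8 to 77 without 1 library, against 30. Genes called higher numbered 382 with no filter and 66 at a mean count of 50, against 169. Leaving out 1 library gave −0.13 to 0.20 for Gpi1, −0.070 to 0.34 for Hk3, −0.15 to 0.28 for Pkm, −0.11 to 0.24 for Slc2a3, −0.28 to 0.052 for Bsg, −0.17 to 0.24 for Pgd, −0.10 to 0.17 for Taldo1 and −1.01 to 0.75 for the Bpgm to Pgam1 ratio. The summed share of the 10 enzymes differed by −0.38 outside globins (−0.43 to −0.34 without 1 library) and by −0.45 of all counts. DESeq2 with the block, and total counts with the block or with a library or batch left out, were added after the data were seen. The cause of these changes was not tested. The 5 enzymes under the filter had few counts, and the part of depth or of lost reads of near-identical copies in this was not tested.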
